A study of Microtus ochrogaster with 40 samples.

Results

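Somatostatin interneurons are a rare class of inhibitory neuron in the nucleus accumbens. Here 2808 of 185995 kept nuclei (1.51%) of 40 prairie voles are called somatostatin nuclei, though not all carried the class's other markers. They were chosen by their counts: at least 3 unique molecular identifiers (UMIs, the counted RNA molecules) of Sst and 0 UMIs of each of Pvalb, DRD1A, DRD2 and Slc17a7. Only barcodes holding 500 UMIs or more entered, and those in which 13 mitochondrial genes gave above 5% of the UMIs were left out. The levels of those 5 genes and of the 13 mitochondrial genes therefore describe the selection and are not results.

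Per the labels, each vole had been housed for 16 days beside a partner, of the other sex in mate animals and of its own sex in peer animals, before its nucleus accumbens was taken. Mates numbered 11 among the females and 11 among the males, and peers 8 and 10, with 1 library of nuclear RNA per animal, and no other treatment or genetic change is named. The labels used here give no age and do not say which animals lived together. The comparisons address whether the partner type, the sex, or both together go with differences in this class of neuron.

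In the striatum, somatostatin interneurons are known as the low-threshold spiking cells. They release GABA together with the peptides somatostatin and neuropeptide Y, and many also make nitric oxide with the enzyme Nos1. Somatostatin neurons of the cortex, by contrast, mostly contact the outer dendrites of pyramidal cells, and only a minority of them make nitric oxide.

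Each animal gave between 20 and 167 somatostatin nuclei, with a median of 66. The kept nuclei of a library numbered between 1793 and 8204 and held 3002288 to 14907749 UMIs. A somatostatin nucleus held a median of 2000 UMIs, beside 2579 in medium spiny nuclei, 2976 in parvalbumin nuclei and 692 in oligodendrocyte nuclei. Male mate 2 stood apart, with a median of 661 UMIs per somatostatin nucleus and 35 medium spiny nuclei, and male peer 5 stood apart with a Slc17a7 UMI in 0.667% of its kept nuclei. Values without male mate 2 are given beside the somatostatin share, without male peer 5 beside Penk, and without both beside the relations of the Nos1, Elfn1 and somatostatin shares with Slc17a7. Of the barcodes that were kept, 19903 occurred in 2 or more libraries. Among the somatostatin nuclei, 603 barcodes were also kept in another library, and 5 were somatostatin nuclei in both.

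The label was checked against genes that the selection did not read. Npy, which encodes neuropeptide Y, had a UMI in 70.0% of the somatostatin nuclei, and its summed level was 5693 CPM (a count divided by the summed UMIs and scaled to 1000000 of them) against 12.1 CPM in medium spiny nuclei. A UMI of at least 1 of the GABA genes Gad1, Gad2 and Slc32a1 was present in 2580 of the 2808 nuclei (91.9%). In nuclei with at least 1000 UMIs, thinned to 1000 each, Gad1 was in 54.7% of somatostatin and 7.68% of oligodendrocyte nuclei, which should lack it, and Gad2 in 55.8% and 13.3%. Markers of other cells were present too, and their lists are summed here without the genes of the selection. The 6 remaining medium spiny markers summed to 502 CPM against 5933 CPM in medium spiny nuclei, and the 4 remaining parvalbumin markers to 154 CPM against 324 CPM in parvalbumin nuclei. Tmem132c of that list was at 119 CPM in somatostatin and 59.9 CPM in parvalbumin nuclei, and Eya4 was at 0 CPM in both. The 4 oligodendrocyte markers used summed to 601 CPM, against 226 CPM in medium spiny and 51419 CPM in oligodendrocyte nuclei, and 25.1% of somatostatin nuclei had at least 1 of their UMIs. The 5 astrocyte markers summed to 488 CPM against 397 CPM in medium spiny nuclei. The 4 remaining glutamate neuron markers summed to 106 CPM against 5.49 CPM in medium spiny nuclei, of which Slc30a3 alone gave 91.1 and 0.912 CPM. The other 3 are given in somatostatin and oligodendrocyte nuclei: Slc17a6 at 6.01 and 4.85 CPM, Tbr1 at 5.69 and 9.51 CPM and Neurod6 at 3.32 and 5.12 CPM. All 4 summed to 23.4 CPM in oligodendrocyte nuclei, and Neurod6 was at 0.995 CPM in medium spiny nuclei. The other lists summed to 74.6 CPM for cholinergic neurons, 56.6 CPM for immature neurons, 37.0 CPM for microglia, 36.5 CPM for oligodendrocyte precursors, 13.0 CPM for vascular cells and 1.58 CPM for ependymal cells. How far RNA of other cells entered the results below was not tested.

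Nuclei near the threshold carried less of the class's own RNA. The 233 nuclei with exactly 3 Sst UMIs, just inside the threshold, had 667 CPM of Npy, 174 CPM of Nos1 and 179 CPM of Adora2a, an adenosine receptor of medium spiny neurons. The 479 nuclei with 2 Sst UMIs and 0 of the other 4 genes, just outside it, had 330 CPM of Npy, 132 CPM of Nos1 and 210 CPM of Adora2a. Over all 2808 nuclei Adora2a was at 28.3 CPM, and in medium spiny nuclei it was at 171 CPM. Nuclei at the threshold thus had Adora2a at about the medium spiny level.

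The somatostatin nuclei were not uniform. A nucleus held between 3 and 526 Sst UMIs with a median of 15, and between 0 and 316 Npy UMIs with a median of 4. Because a deeper nucleus shows more genes, 2231 somatostatin nuclei with at least 1000 UMIs were thinned to exactly 1000 UMIs each and 577 shallower ones were left out of this count. After thinning, Npy was detected in 63.9% of them, Nos1 in 30.3% and Chodl in 15.8%. Before thinning the shares over all nuclei were 70.0%, 34.4% and 20.4%. Chodl encodes a membrane protein that marks long-range Nos1 neurons in the cortex of other rodents. In thinned oligodendrocyte nuclei, which should lack these genes, the shares were 1.94% for Npy, 0.842% for Nos1 and 0.183% for Chodl, and in thinned medium spiny nuclei they were 1.15%, 0.978% and 0.0498%.

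Nos1 and Chodl lay almost wholly inside the Npy-positive nuclei. Of the thinned somatostatin nuclei with a Nos1 UMI, 95.6% also had Npy, against 50.2% of those without Nos1. Of those with Chodl, 98.6% had Npy and 89.0% had Nos1. The 3 genes together were found in 311 thinned nuclei (13.9%), Npy with Nos1 but no Chodl in 335 (15.0%), Npy alone of the 3 in 743 (33.3%) and none of them in 773 (34.6%). Nos1 without Npy was found in 27 nuclei without Chodl and 3 with it.

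A second set of genes was found mainly outside the Nos1 nuclei. Elfn1, a synaptic protein that sets how excitatory inputs onto somatostatin cells behave, had a UMI in 2.22% of thinned nuclei with Nos1 and in 29.1% of those without. Reln, which encodes the secreted protein reelin, was in 7.54% of nuclei with Nos1 and 37.0% of those without. Grik1, a kainate receptor subunit, was in 2.96% and 21.3%. Elfn1 and Reln went together, since Reln was in 57.8% of nuclei with Elfn1 and in 20.2% of those without. Calb2, the calcium binding protein calretinin, lay on the other side: 64.1% of Calb2 nuclei had Nos1, against 26.6% of nuclei without Calb2. These shares are descriptions of 1 pool of nuclei from 40 animals and carry no test.

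**Figure D1:**
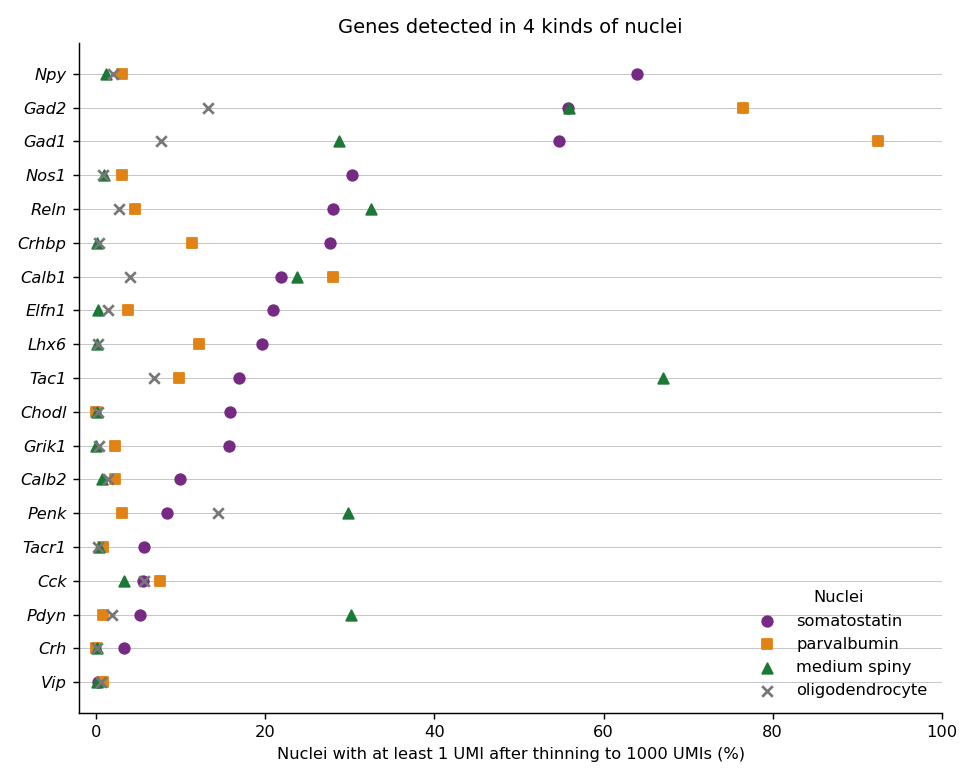
The plot gives, for each gene on the vertical axis, the percent of nuclei with at least 1 UMI after thinning to 1000 UMIs, in 2231 somatostatin, 132 parvalbumin, 16050 medium spiny and 2733 oligodendrocyte nuclei. Npy, Nos1, Chodl, Crhbp, Elfn1, Lhx6 and Grik1 were detected most often in somatostatin nuclei, while Tac1, Penk and Pdyn were detected most often in medium spiny nuclei.

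Among other peptides, Vip, Cck and Crh were found in few somatostatin nuclei. Tac1, the substance P precursor, was more common, with a UMI in 16.9% of thinned somatostatin and 6.81% of thinned oligodendrocyte nuclei. It was detected most often in medium spiny nuclei. Vip, the peptide of another interneuron class, had a UMI in 0.224% of thinned somatostatin nuclei, below its 0.585% in oligodendrocyte nuclei, and Cck in 5.51% against 5.71%. Neither stood above oligodendrocyte nuclei, while thinned medium spiny nuclei had 0.0935% for Vip and 3.25% for Cck. Crh, the stress peptide corticotropin-releasing hormone, was in 3.27% against 0.146%. Crhbp, the protein that binds that peptide, was in 27.6% against 0.293%. Crh and Crhbp were seldom found in the same nucleus: 5.48% of the 73 thinned nuclei with Crh had Crhbp, against 28.4% of those without Crh.

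Across animals the mix of these nuclei varied widely. The share of somatostatin nuclei with an Npy UMI was lowest in male mate 8, at 52.3%, and highest in male mate 9, at 84.7%, with a median of 69.8%. The share with a Nos1 UMI after thinning ran from 0% in male mate 2, where only 15 nuclei were deep enough and a count of 0 allows up to 20.0%, to 52.5% in female mate 5, with a median of 28.7%. The share with Elfn1 was lowest at 5.26% (male peer 1 and male peer 5) and highest at 53.3% (male mate 2).

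This mix was set beside the amount of Slc17a7-positive nuclei in a library. Slc17a7 encodes the vesicular glutamate transporter of cortical projection neurons, and the percent of kept nuclei with a UMI of it was lowest in male peer 5 (0.667%) and highest in male mate 2 (37.3%). The selection read that gene, so relations with this percent are descriptions and carry no test. The share of somatostatin nuclei with Nos1 was lower where that percent was higher (Pearson r = -0.724, Spearman rho = -0.676, n = 40). Without the 2 animals farthest from the median, male peer 5 and male mate 2, r was -0.655. Within the 4 groups r was -0.536 in female mates, -0.658 in female peers, -0.816 in male mates and -0.793 in male peers.

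The relations with the Nos1 and Elfn1 shares were added after the data had been seen. The share of Elfn1 nuclei had r = 0.512 and rho = 0.393 with the Slc17a7 percent over the 40 animals. Without the same 2 animals r was 0.320, and in female peers it was -0.148. The share of somatostatin nuclei among kept nuclei had r = 0.655 and rho = 0.583 with the Slc17a7 percent over the 40 animals, and r was 0.608 without the 2 animals. Within groups this r was 0.473, 0.141, 0.754 and 0.826 in female mates, female peers, male mates and male peers. The Npy share had r = -0.247 with that percent. In all, 6 relations were computed. Over the 40 animals, the somatostatin and Npy shares had r = -0.162 and -0.308 with the median depth of the somatostatin nuclei. The selection set a minimum of UMIs per barcode and of Sst UMIs, and both depend on depth. The relations with depth are therefore also descriptions and carry no test. Within female mates, female peers, male mates and male peers, r with depth was -0.391, 0.638, -0.660 and 0.0339 for the somatostatin share. For the Npy share it was -0.475, -0.778, 0.0735 and -0.130. The cause of these relations was not tested.

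**Figure D2:**
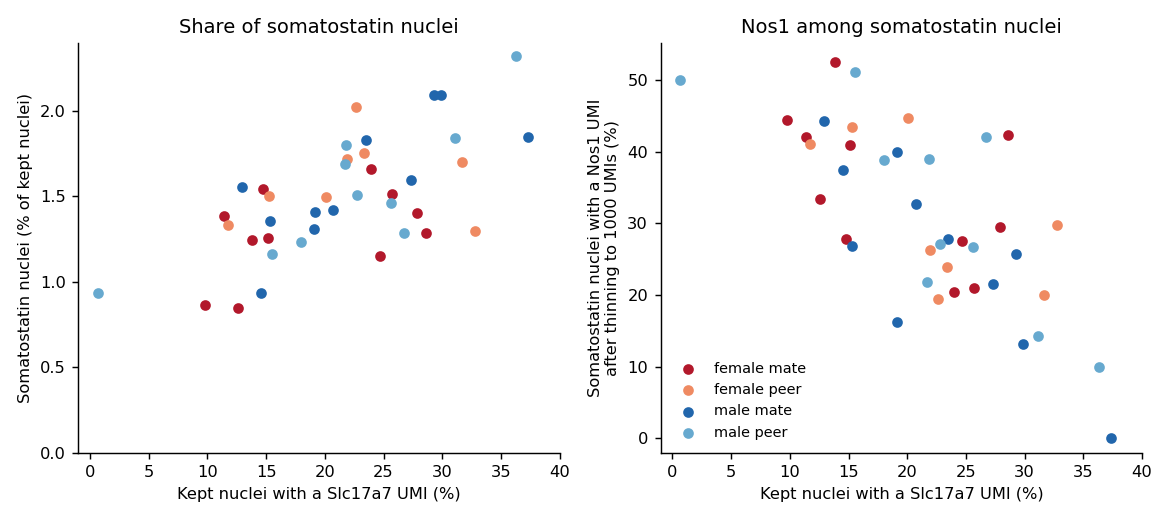
Each point is 1 of 40 animals, coloured by group. The horizontal axis is the percent of kept nuclei with a Slc17a7 UMI; the vertical axes are the percent of kept nuclei that were somatostatin nuclei (left) and the percent of thinned somatostatin nuclei with a Nos1 UMI (right). The left share ran upward (r = 0.655) and the right share downward (r = -0.724), with male peer 5 and male mate 2 at the ends.

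The share of somatostatin nuclei among kept nuclei was compared over the 4 groups, with no test within the females or the males alone. Among females the share was 1.29% ± 0.259 (SD, n = 11) for mates and 1.60% ± 0.242 (SD, n = 8) for peers. Among males it was 1.59% ± 0.355 (SD, n = 11) for mates and 1.52% ± 0.404 (SD, n = 10) for peers. Female mates ran from 0.849% to 1.66% with a median of 1.29%, and female peers from 1.30% to 2.02% with a median of 1.60%. Male mates ran from 0.933% to 2.09% with a median of 1.56%, and male peers from 0.934% to 2.32% with a median of 1.48%. The ranges of the 4 groups overlapped.

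The mean over mates minus peers, averaged over the sexes, was -0.127 percentage points (two-sided permutation p 0.234, adjusted p 0.318). Females minus males gave -0.109 percentage points (permutation p 0.318, adjusted p 0.318). The pairing difference in females minus that in males was -0.379 percentage points (permutation p 0.0736, adjusted p 0.221). None passed 0.05. Without male mate 2 the 3 differences were -0.140, -0.0956 and -0.353 percentage points (permutation p 0.197, 0.383 and 0.102). Per 100 medium spiny nuclei and without male mate 2, mates minus peers was -1.54 (permutation p 0.587). Among nuclei with a GABA gene, mates minus peers was -0.392 percentage points (permutation p 0.159). The means of that share were 2.04% in female mates, 2.81% in female peers, 2.69% in male mates and 2.71% in male peers. The Slc17a7 percent was 18.9% ± 7.19 (SD, n = 11) for mates and 22.4% ± 7.22 (SD, n = 8) for peers among females. Among males that percent was 22.6% ± 7.59 (SD, n = 11) for mates and 22.0% ± 9.64 (SD, n = 10) for peers. A share of nuclei can also change with any other class, so fewer somatostatin cells and more of another class cannot be told apart here.

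The percent of somatostatin nuclei with Npy was 70.9% ± 8.05 (SD, n = 11) for mates and 70.2% ± 10.5 (SD, n = 8) for peers among females. In the males, mates had 68.3% ± 8.49 (SD, n = 11) and peers 71.0% ± 6.89 (SD, n = 10). Mates minus peers was -0.995 percentage points (permutation p 0.712), females minus males 0.880 (permutation p 0.743) and the interaction 3.42 (permutation p 0.525), each with an adjusted p of 0.743.

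**Figure D3:**
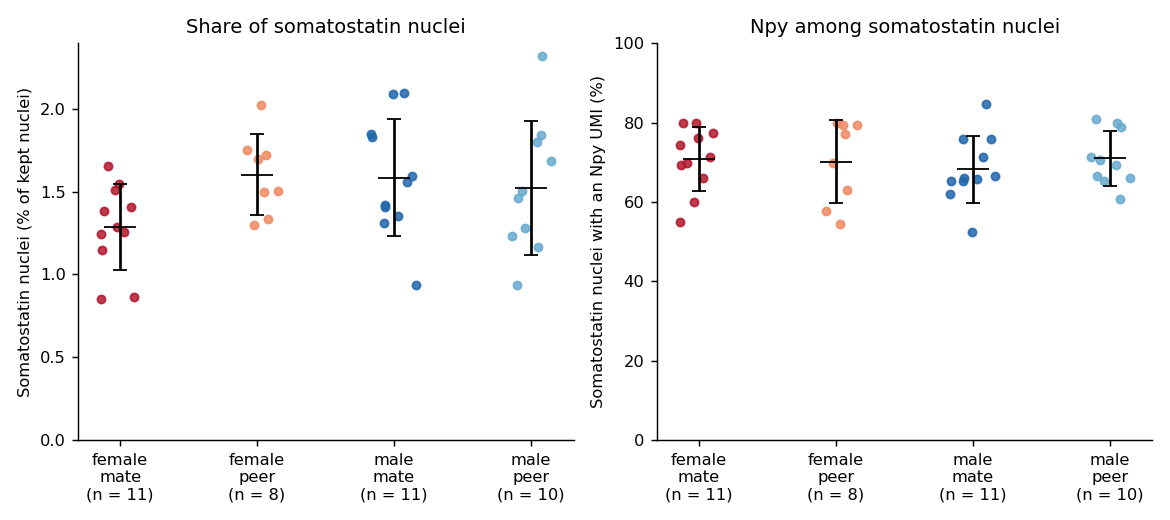
Points are animals, the horizontal mark is the group mean and the bar 1 SD either way. The left panel gives somatostatin nuclei as a percent of kept nuclei, between 0.849% and 2.32%, and the right panel the percent of somatostatin nuclei with an Npy UMI, between 52.3% and 84.7%. The groups overlap in both.

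Against medium spiny neurons, the main output cells of the same tissue, the somatostatin nuclei differed in many genes. Npy, Gad1 and Lhx6 were among the higher genes and Tac1 and Penk among the lower ones. Medium spiny nuclei (16213) had at least 3 UMIs of DRD1A or DRD2 and 0 of Sst, Pvalb and Slc17a7. Their levels of DRD1A and DRD2, which describe the selection, were 1249 and 153 CPM. How many of them passed by each receptor gene is not given here. Counts were summed per animal and kind, so that all 40 animals were compared with themselves by edgeR's quasi-likelihood test with an animal term, over 6596 genes other than the 5 read by the selection. A gene was called with an adjusted p under 0.05 and a log2 fold change of at least 1 in size. Higher in somatostatin nuclei were 450 genes (6.82% of those tested) and lower were 560 (8.49%). The mitochondrial genes, which the limit on mitochondrial UMIs read, were not taken out before testing. Any of them among these calls are not results, and their number is not given here. Nuclei of both kinds were chosen by marker genes, so that a difference between them was built in for genes tied to those markers.

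Npy led the higher genes. In somatostatin nuclei it ran from 2173 to 12664 CPM over the 40 animals, with a median of 5023, and in medium spiny nuclei from 0 to 37.0 CPM with a median of 12.0. The ranges did not overlap, and the log2 fold change was 8.84 (SE 0.10). Crhbp ran from 151 to 1182 CPM against at most 7.18 CPM, a log2 fold change of 8.51 (SE 0.10). Chodl ran from 18.3 to 417 CPM against at most 2.11 CPM, a log2 fold change of 8.47 (SE 0.14). Grik1 ran from 81.4 to 472 CPM against at most 2.48 CPM, a log2 fold change of 7.95 (SE 0.14). Each of these genes was higher in the somatostatin nuclei of 40 of 40 animals.

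The next 6 were Lhx6 (log2 fold change 7.30), Tmem132c (7.10), Pcdh18 (7.03), Sox6 (6.89), Elfn1 (6.85) and Nxph1 (6.67), each also higher in 40 of 40 animals. Lhx6 and Sox6 are transcription factors of interneurons born in the medial ganglionic eminence, and Nxph1 encodes a secreted partner of neurexins. The genes farthest lower were Ptprv (-5.99), Dclk3 (-5.03), Car12 (-4.87), Adamts3 (-4.82), Kcnj2 (-4.74), Col24a1 (-4.72), Asic4 (-4.68), Scn4b (-4.58), Acvr1c (-4.57) and Arhgap10 (-4.54). Kcnj2 encodes an inward rectifier potassium channel and Scn4b a sodium channel beta subunit of medium spiny neurons. Kcnj2 was at 8.41 ± 8.14 CPM in somatostatin and 233 ± 32.7 CPM in medium spiny nuclei (SD, n = 40), and none of these 10 genes was higher in the somatostatin nuclei of any animal.

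**Figure D4:**
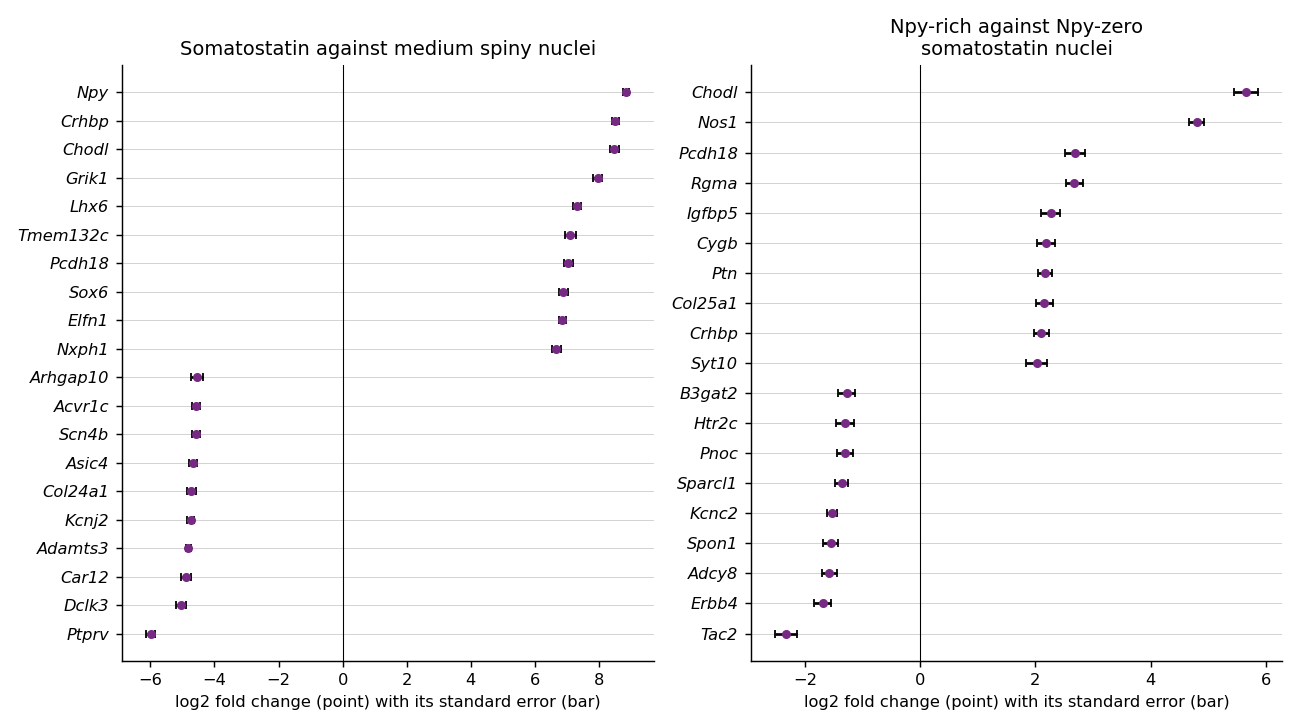
Points are log2 fold changes from edgeR and bars their standard errors, for the named genes reported here of each comparison, somatostatin against medium spiny nuclei in 40 animals (left) and Npy-rich against Npy-zero somatostatin nuclei in 34 animals (right). Npy at 8.84 and Ptprv at -5.99 are the ends on the left, and Chodl at 5.66 and Tac2 at -2.33 on the right.

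The tested genes were also grouped by role into lists, given here in no order of rank. Of 6 tested genes for GABA synthesis, packaging and uptake, 3 were higher and 0 lower, with a list median of 1.04 beside 0.00 over all tested genes (log2 fold change, as for every list median below). Gad1, which makes GABA, was at 1184 ± 277 CPM in somatostatin and 379 ± 55.2 CPM in medium spiny nuclei (SD, n = 40; log2 fold change 1.62). Gad2, which also makes GABA, had a log2 fold change of 0.46 and was not called. Slc6a11, a GABA transporter, had a log2 fold change of 2.50.

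Among 17 tested genes of neuropeptides and their partners, 5 were higher and 5 lower, with a median of 0.05. Higher were Npy, Crhbp, Pnoc, Pam and Chga, and lower were Penk, Cartpt, Tac1, Pcsk2 and Pdyn. Pnoc, the precursor of nociceptin, was at 138 ± 73.5 CPM against 7.52 ± 5.85 CPM (SD, n = 40; log2 fold change 4.09). Pam, which amidates peptides, was at 1173 ± 233 CPM against 450 ± 72.2 CPM (1.37). Tac1, the substance P precursor, was at 292 ± 126 CPM against 1876 ± 407 CPM (-2.72). Penk, the enkephalin precursor, was at 202 ± 376 CPM against 1845 ± 649 CPM (-3.47), and its summed level in the somatostatin nuclei of male peer 5 alone was 2416 CPM beside a median of 118 CPM over animals. By summed level Penk was at 204 ± 377 CPM in somatostatin and 1817 ± 630 CPM in medium spiny nuclei (SD, n = 40). Without male peer 5 the summed levels were 147 ± 116 CPM in somatostatin and 1819 ± 638 CPM in medium spiny nuclei (SD, n = 39).

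Of 8 tested genes of nitric oxide and cGMP signalling, 2 were higher and 3 lower, with a median of -0.40. Nos1, which makes nitric oxide, was at 945 ± 390 CPM against 8.92 ± 4.14 CPM (SD, n = 40; log2 fold change 6.64), and Pde1a also was higher (1.07). Lower were Gucy1a1 (-1.95) and Gucy1b1 (-1.15), which form the receptor for nitric oxide, and Pde10a (-3.05), a phosphodiesterase of medium spiny neurons.

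Of 10 tested transcription factors of interneurons, 7 were higher and 2 lower, with a median of 3.36. The higher ones included Lhx6, Sox6, Satb1 (4.98), Zeb2 (3.71), Dlx1 (3.40) and Dlx2 (2.44), and the lower ones were Meis2 (-3.37) and Zfhx3 (-2.26). Nkx2-1, an early regulator of this lineage, was at 6.17 CPM and was not among the genes tested.

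Receptors for the class's own peptides were measured too. Of 3 tested somatostatin and NPY receptors, Npy2r (100 ± 44.6 against 8.58 ± 8.00 CPM, SD, n = 40; log2 fold change 3.54) and Sstr1 (86.1 ± 25.7 against 7.21 ± 3.37 CPM; 3.47) were higher and Sstr4 lower (-3.84), with a list median of 3.47. Of 13 tested receptors for modulators and hormones, 4 were higher and 5 lower, with a median of 0.53. Higher were the muscarinic receptor Chrm2 (6.50) and the serotonin receptors Htr1a (5.75), Htr7 (4.48) and Htr2c (1.93). Lower were Oprk1 (-2.76), Chrm4 (-2.69), Chrm1 (-2.02), Oprm1 (-1.74) and Htr4 (-1.66). The oxytocin receptor gene Oxtr, of long-standing interest in pair bonding, had 32 UMIs over all somatostatin nuclei in 19 of 40 animals (5.06 CPM), too few for a test, and 6.74 CPM in medium spiny nuclei.

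Of 22 tested ion channels, 7 were higher and 5 lower, with a median of 0.14. Among the higher were Kcnc2 (5.61), Cacna1g (4.55), Trpc6 (74.0 ± 36.4 against 8.34 ± 5.14 CPM), Kcna2 (1.40), Scn1a (1.33) and Kcnc1 (1.20). Cacna1g encodes a T-type calcium channel that opens at low voltage, and it was at 134 ± 47.0 CPM against 5.61 ± 3.85 CPM (SD, n = 40). Of 26 tested genes of synaptic adhesion and wiring, 11 were higher and 4 lower, with a median of 0.40. Examples are Cdh13, a cadherin (314 ± 85.4 against 7.73 ± 4.23 CPM; 5.28), and Grm5, a metabotropic glutamate receptor (135 ± 47.2 against 433 ± 96.6 CPM; -1.64). Of 7 tested immediate early genes, which follow recent activity, 0 were higher and 5 lower, with a median of -1.72. The lower ones were Egr3 (-2.92), Arc (-2.25), Egr1 (-1.76), Npas4 (-1.72) and Nr4a1 (-1.56). Not every gene of the list was lower: the summed level of Fos was 45.5 CPM in somatostatin and 34.3 CPM in medium spiny nuclei.

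Parvalbumin interneurons are the other large interneuron class from the same origin, but 150 nuclei with at least 3 Pvalb UMIs and 0 of Sst, DRD1A, DRD2 and Slc17a7 were found in all. Only 2 animals had 10 or more of them, so this comparison rests on 2 animals, female mate 4 and male mate 10. Of 3960 tested genes, 2 were higher in somatostatin nuclei (0.0505%) and 8 lower (0.202%). Higher were Npy (5042 and 6907 CPM against 30.9 and 153 CPM; log2 fold change 5.98, SE 0.54) and Nos1 (707 and 1154 CPM against 25.4 and 30.9 CPM; 4.98, SE 0.55). The higher and lower values of each kind are listed here in order of size, not by animal.

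Lower in somatostatin nuclei were Syt2 (-4.52), Nefh (-3.45), Hapln1 (-3.36), Cplx1 (-2.36), Kcnc1 (-2.28) and 1 gene without a symbol. The other 2 of the 8 are mitochondrial genes, which the limit on mitochondrial UMIs read, and are not results. Syt2 and Cplx1 serve fast transmitter release, and Kcnc1 encodes a channel of fast spiking. Nefh, a neurofilament, was at 83.4 and 130.2 CPM against 865 and 1516 CPM. Among the lists, called genes were Npy among 14 tested peptide genes (list median 0.64), Nos1 among 4 of nitric oxide and cGMP and Kcnc1 among 15 ion channels (-0.94), beside 0.10 over all tested genes. None was called among 5 GABA genes (median -0.35), 7 transcription factors (0.14), 2 receptors of somatostatin and NPY, 5 receptors for modulators (0.11) or 19 adhesion genes, and no immediate early gene was tested. No median is given for the 3 lists that hold Pde1a, Npy2r and Grik1, which were at 0 CPM in the parvalbumin nuclei of both animals. These counts moved widely with the processing: with DESeq2's scaling factors in edgeR 36 genes were higher and 47 lower, and DESeq2 itself called 11 and 26. With Pvalb of 2 or more and at least 3 nuclei per animal, an alternative chosen after the data were seen, 37 animals entered and 104 genes were higher and 100 lower among 1874 tested. Npy (6.78), Nos1 (5.00), Nefh (-2.88), Kcnc1 (-2.42) and Cplx1 (-1.73) kept their direction and were called there.

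Within the somatostatin nuclei, those rich in Npy differed from those without it. Npy-rich nuclei (1730) had at least 2 Npy UMIs and Npy-zero nuclei (843) had 0, with median depths of 2031 and 2005 UMIs. In 34 animals with at least 10 of each, 2177 genes other than Npy and the 5 of the selection were tested by the same paired fit. Higher in Npy-rich nuclei were 25 genes (1.15%) and lower were 14 (0.643%). Any mitochondrial genes among these calls are not results.

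Chodl and Nos1 led the higher genes. Chodl ran from 37.9 to 542 CPM with a median of 287 in Npy-rich nuclei and from 0 to 42.0 CPM with a median of 0 in Npy-zero nuclei, a log2 fold change of 5.66 (SE 0.21). Nos1 ran from 499 to 2398 CPM with a median of 1396, against 0 to 462 CPM with a median of 39.0, a log2 fold change of 4.80 (SE 0.13). Nos1 did not overlap between the kinds, Chodl overlapped in its extremes, and both were higher in the Npy-rich nuclei of 34 of 34 animals.

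The others of the 10 highest were Pcdh18 (2.68), Rgma (2.68), Igfbp5 (2.26), Cygb (2.18), Ptn (2.17), Col25a1 (2.16), Crhbp (2.10) and Syt10 (2.02), each higher in at least 32 of 34 animals. Cygb encodes cytoglobin, a globin, and Rgma a guidance molecule. Crhbp was at 745 ± 182 CPM in Npy-rich and 171 ± 117 CPM in Npy-zero nuclei (SD, n = 34). Lhx6 also was called (1.08), at 301 ± 109 and 143 ± 78.1 CPM.

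Among the genes lower in Npy-rich nuclei were Tac2 (-2.33), Erbb4 (-1.70), Adcy8 (-1.58), Spon1 (-1.56), Kcnc2 (-1.53), Sparcl1 (-1.37), Pnoc (-1.31), Htr2c (-1.31) and B3gat2 (-1.28). Tac2, the neurokinin B precursor, was at 78.9 ± 88.3 CPM in Npy-rich and 416 ± 259 CPM in Npy-zero nuclei (SD, n = 34) and was higher in the Npy-rich nuclei of 1 animal. Erbb4 encodes the neuregulin receptor, and was at 102 ± 52.8 and 344 ± 168 CPM.

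Over the lists, the called genes in this comparison were few. Among 9 peptide genes Crhbp was higher and Tac2 and Pnoc lower (list median -0.04, beside -0.00 over all tested genes). Nos1 was called of 3 genes of nitric oxide and cGMP (0.27), Lhx6 of 4 transcription factors (-0.61), Htr2c of 3 receptors for modulators (-0.34), Kcnc2 of 12 ion channels (-0.24), and Erbb4 and Tenm1 of 18 adhesion genes (-0.03). None was called of 5 GABA genes (-0.19), and no immediate early gene and no receptor for somatostatin or NPY was tested.

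Comparing the groups of animals, 5533 genes were tested on counts summed over the somatostatin nuclei of each animal, so that p-values measure the spread between animals. Here and in the tests of shares every animal was taken as independent. Animals that lived together may not be, and the labels do not name them. A gene was called with an adjusted p under 0.05. No gene was called for pairing (0% of those tested, mates against peers averaged over the sexes). An unadjusted p under 0.05 was found for 349 genes (6.31%) in edgeR and 307 (5.55%) in DESeq2, which also called 0. At that threshold chance alone gives about 1 in 20 genes. The 3 genes with the lowest p were Tmed9, Ythdf3 and Tmem128 (edgeR adjusted p 0.640 for all 3). Tmed9, a cargo protein of the secretory pathway, was at 92.5 ± 29.1 CPM in mates and 133 ± 29.1 CPM in peers (SD, n = 22 and 18; log2 fold change -0.50, SE 0.12). Ythdf3, a reader of methylated RNA, was at 61.4 ± 18.6 and 40.5 ± 12.4 CPM (0.64, SE 0.17). Tmem128 was at 47.0 ± 20.3 and 74.7 ± 25.7 CPM (-0.64, SE 0.18).

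The pairing difference was also tested within each sex and between the sexes. Within females 0 genes were called (0% of those tested). An unadjusted p under 0.05 was found for 234 (4.23%) in edgeR and 206 (3.72%) in DESeq2, which called 0. Among the lowest p-values were those of Dph1 and Tmed9 (edgeR adjusted p 0.817 for both). Within males 0 were called (0% of those tested), with 251 (4.54%) and 218 (3.94%) at an unadjusted p under 0.05 and 0 calls by DESeq2. The lowest p-values were those of Zfhx2, Zfp335 and Kcnk2 (edgeR adjusted p 0.976 for all 3). For the difference between the sexes 0 were called (0% of those tested), with 189 (3.42%) and 153 (2.77%) at an unadjusted p under 0.05. DESeq2 made 0 calls, and Amn1, Htra1 and Rprd1b had the lowest p (edgeR adjusted p 1.00 each).

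The 9 lists held 0 called genes for pairing, within females, within males and for the interaction. For pairing their medians lay between -0.13 for 6 GABA genes and 0.13 for 21 ion channels, beside 0.01 over all tested genes; the other tested counts were 17 peptide genes (median -0.03), 6 of nitric oxide and cGMP (-0.03), 11 transcription factors (0.02), 2 receptors for somatostatin and NPY (0.02), 10 receptors for modulators (0.03), 24 adhesion genes (0.09) and 3 immediate early genes (0.01). Npy itself, which the selection did not read, ran from 2211 to 12922 CPM with a median of 5089 in female mates and from 2273 to 8646 CPM with a median of 4410 in female peers. In males it ran from 2528 to 7755 CPM with a median of 4466 in mates and from 4581 to 8900 CPM with a median of 6600 in peers. The 4 ranges overlapped. The log2 fold change of mates against peers was 0.33 (SE 0.24, edgeR adjusted p 1.00) within females and -0.54 (SE 0.22, edgeR adjusted p 0.976) within males, and the difference of the 2 was 0.87 (SE 0.33, unadjusted p 0.00984 and adjusted p 1.00 in edgeR), which did not pass. Nos1 had a log2 fold change of -0.00 (SE 0.17) for pairing.

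Between the sexes 3 of 5533 genes were called (0.0542%), all higher in females: Kdm5c, Kdm6a and Nts. At an unadjusted p under 0.05 there were 271 genes (4.90%). Kdm5c and Kdm6a encode histone demethylases that are X-linked in mammals and known to escape X inactivation in other species. Kdm5c ran from 108 to 292 CPM with a median of 193 in 19 females and from 74.2 to 196 CPM with a median of 133 in 21 males. The ranges overlapped, and 17 of 19 females lay above the male mean (log2 fold change 0.64, SE 0.11, edgeR adjusted p 0.00101). Kdm6a ran from 105 to 203 CPM with a median of 142 in females and from 54.9 to 175 CPM with a median of 88.7 in males. All 19 females lay above the male mean (log2 fold change 0.65, SE 0.12, edgeR adjusted p 0.00269).

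Nts, the precursor of neurotensin, a peptide that acts on dopamine signalling, ran from 0 to 246 CPM with a median of 61.4 in females and from 0 to 199 CPM with a median of 9.85 in males. The log2 fold change was 1.83 (SE 0.34, edgeR adjusted p 0.00269), with 13 of 19 females above the male mean. DESeq2 gave an adjusted p of 0.149, and with an Sst threshold of 2 UMIs the log2 fold change was 1.41 with an edgeR adjusted p of 0.112, so that the call depended on these choices. With an Sst threshold of 5 UMIs it was not among the genes tested.

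The Nts counts rested on few nuclei. The 1221 female somatostatin nuclei held 245 Nts UMIs in 63 nuclei (5.16%), and the 1587 male ones held 78 UMIs in 40 nuclei (2.52%). Of the female UMIs, 165 (67.3%) lay in 12 nuclei of 10 animals with 5 or more Nts UMIs each, and of the male UMIs 18 lay in 1 nucleus of male peer 2. The other nuclei held 80 Nts UMIs in females and 60 in males. Of the 12 female nuclei, 10 had no Npy UMI, none had a Crhbp UMI, 1 had an Lhx6 UMI, 10 had a Gad1 or Gad2 UMI and 2 were called doublets. The nuclei with exactly 3 Sst UMIs had 224 CPM of Nts, against 51.1 CPM over all somatostatin nuclei. In all other kept nuclei Nts ran from 28.0 to 97.1 CPM with a median of 60.9 in females and from 10.6 to 82.7 CPM with a median of 49.6 in males. Whether RNA from other cells took part was not tested.

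**Figure D5:**
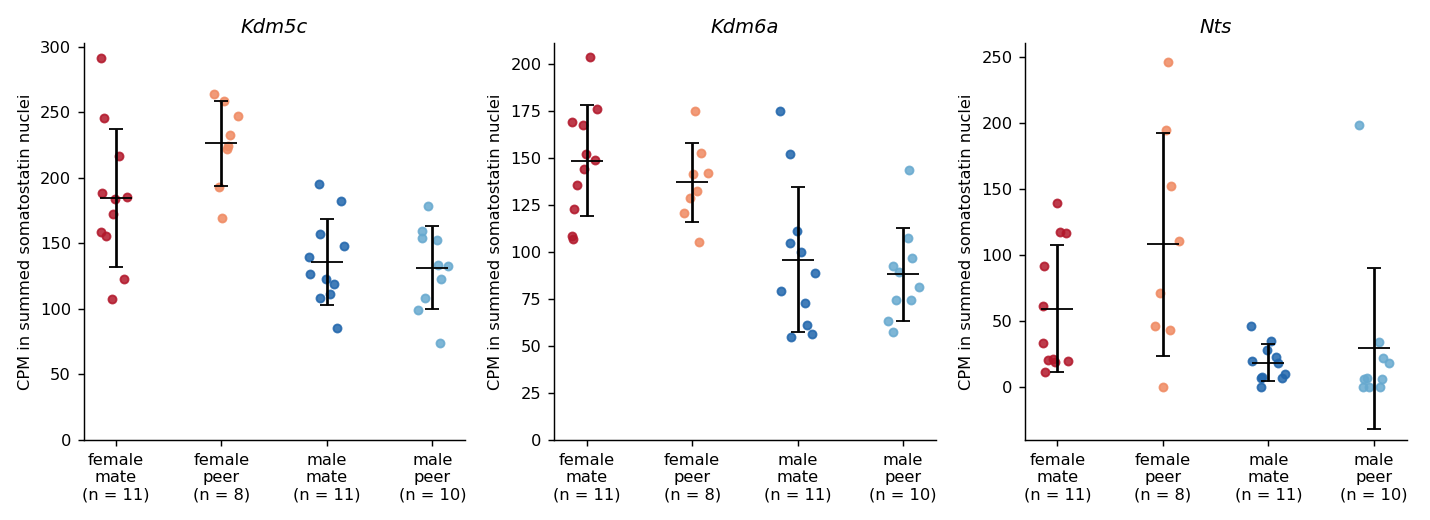
Points are animals, with the group mean and 1 SD either way, for Kdm5c, Kdm6a and Nts in CPM of the summed somatostatin nuclei. Female medians were 193, 142 and 61.4 CPM and male medians 133, 88.7 and 9.85 CPM. Male peer 2, at 199 CPM of Nts, stands apart from the other male peers.

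Markers of other cells were set beside the sex comparison. The summed oligodendrocyte markers in the somatostatin nuclei ran from 126 to 2254 CPM with a median of 588 in females and from 68.1 to 1102 CPM with a median of 395 in males. The medium spiny markers ran from 217 to 787 CPM (median 481) and from 275 to 861 CPM (median 479), and the astrocyte markers from 143 to 968 CPM (median 420) and from 165 to 1226 CPM (median 469). Microglia markers ran from 0 to 141 CPM (median 30.9) in females and from 0 to 129 CPM (median 9.73) in males. Markers of oligodendrocyte precursors ran from 0 to 158 CPM (median 31.8) and from 0 to 107 CPM (median 14.6), and vascular markers from 0 to 139 CPM (median 6.06) and from 0 to 72.8 CPM (median 0). The part of these in the sex differences was not tested. Apart from Nts, 1 of 17 tested peptide genes, no list held a called gene by sex, and the list medians lay between -0.13 for 10 receptors for modulators and 0.24 for 3 immediate early genes, beside -0.00 over all tested genes.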

How the data were processed

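Single-nucleus RNA was measured in 40 libraries, 1 per animal, and the authors deposited whole-number UMI counts for 19130 genes in every barcode, made with Cell Ranger 3.1.0 per the submitters' processing notes. The genome build is not given in the sources used here. From 194518 barcodes, 6375 with under 500 UMIs and 2148 with over 5% mitochondrial UMIs were left out. Doublets were scored against simulated ones at 0.8% per 1000 barcodes; 7608 kept nuclei (4.09%) and 109 somatostatin nuclei (3.88%) were called, were kept in the main results and were removed in an alternative.

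The somatostatin nuclei and the gene lists were chosen with earlier results of these data known. Counts were summed per animal and tested with edgeR 4.0.16 (TMM, filterByExpr, quasi-likelihood, R 4.3.3), two-sided with Benjamini-Hochberg adjustment over all tested genes. The 4 groups shared 1 fit, for animals with at least 20 somatostatin nuclei. Contrasts between kinds of nuclei had an animal term and needed 10 nuclei on each side. The 5 genes of the selection stayed in the library sizes and out of the tests, and the 13 mitochondrial genes stayed in both. Shares were compared by two-sided permutation tests with 100000 resamples, the other factor as strata. DESeq2 1.42.0 was an alternative. CPM given over animals for a tested gene, as a range, median or mean, were also divided by the TMM factors. Summed levels, marker lists and Nts in other kept nuclei were not. The tests were tried on simulated data.

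Named in the text are, for each group contrast, called genes in order of p (5 at most, or 3 where none was called), the 10 highest and 10 lowest called genes between kinds of nuclei with at least 50 CPM on the higher side, and called genes of 9 lists. Counts of 3′ tags are not compared between genes. Shares of nuclei with a UMI cover counting error only in part, since depth differs between libraries. Cort and Avpr1a were not used here. A few named genes are not reported here.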

Additional observations from a re-analysis of the deposited data

Results flagged for a closer look

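In 38 sets of values of the 8 female peers or the 10 male peers, 5 held an animal far from the others. The mate groups of 11 animals were not searched, so these 5 do not set peers apart from mates. Chance alone gives about 1 in 20, though most genes searched had been named for a low p in these same animals. The median depth of the somatostatin nuclei was 3816 UMIs in female peer 3, beside 2562 in the next female peer. Nts stood at 199 CPM in male peer 2 and at 33.8 CPM in the next male peer, and 18 UMIs of it lay in 1 nucleus. Among genes that passed no threshold, Amn1 reached 84.0 CPM in female peer 5, above 52.6 CPM in the animal after it, and Kcnk2 reached 98.8 CPM in female peer 1, above 47.8 CPM. Rprd1b was at 23.9 CPM in female peer 8, below the next lowest female peer at 51.8 CPM.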

How the results depend on the processing

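Without a filter on low counts, 1 gene was called for pairing, 5 by sex, 180 against parvalbumin, 3378 against medium spiny and 326 between Npy-rich and Npy-zero nuclei, beside 0, 3, 10, 1010 and 39. After thinning to 1000 UMIs the last 3 counts were 40, 558 and 8, among 1165, 3454 and 374 tested genes. For these 3 comparisons the main fits tested 3960, 6596 and 2177 genes, and the fits without a filter 12639, 16833 and 15145. For pairing and sex 5533 genes were tested in the main fit and 15281 without a filter. Against parvalbumin nuclei DESeq2 called 37 genes, edgeR with DESeq2's factors 83, no animal term 166, and Pvalb of 2 or more, chosen after the data were seen, 204. Per 100 medium spiny nuclei the pairing difference in share turned to 12.2 (permutation p 0.784), with male mate 2 at 323 per 100, and was -1.54 (permutation p 0.587) without that animal, an alternative chosen after the data were seen. Leaving out each animal in turn, also chosen after the data were seen, gave 0 to 0 genes for pairing, 3 to 4 by sex, and share differences of -0.160 to -0.0828 for pairing, -0.141 to -0.0644 by sex and -0.468 to -0.314 for the interaction. Among named genes that an alternative tested, calls were lost for Nts as given above and for Hapln1 without a filter (-3.19) and without doublets (-3.26). After thinning, with 8 calls among 374 genes between Npy-rich and Npy-zero nuclei, not every named gene of that comparison had a call. The cause was not tested. Depth limits male mate 2 and genes such as Oxtr. Contrasts between kinds of nuclei were paired by animal. Between the 4 groups of animals, no paired analysis was made because the replicate numbers were given in accession order and pair no animals. A fit with blocks of 10 libraries in label order called 0 genes for pairing and 3 by sex.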
